A study of Mus musculus with 8 samples.

Results

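The proteasome subunit genes were chosen by symbol, as the genes whose name is Psm, a letter from a to g and a digit and that are present in both deposited expression tables. This gave 34 of the 8537 genes shared by the tables of ribosome-bound and total mRNA from mouse MII oocytes (metaphase II, the ovulated egg). Of these, 33 code for a subunit, activator, inhibitor or assembly factor of the proteasome. The other one, Psmc3ip, codes for a cofactor of meiotic recombination that shares the symbol by name only, and its values are given at the end. Among the 33 genes were 10 of the core particle, 9 of the regulatory particle base, 7 of the lid, 3 activators and inhibitors, and 4 assembly factors.

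The 4 pools of oocytes came from RiboTagF/F;Zp3-Cre female mice of the C57BL/6 strain, 2 from young females aged 1 month and 2 from old females aged 12 to 15 months that were retired breeders. Young and old mice carried the same alleles, in which Zp3-Cre, driven by an oocyte promoter, switches on an HA-tagged ribosomal protein (Rpl22) in growing oocytes. All females received 5 IU PMSG and 10 IU hCG 48 h later, and ovulated oocytes were taken from the oviduct 13 h after hCG. Each pool held 200 oocytes from an unstated number of mice and gave an input library (total mRNA, from 10% of the lysate) and an HA library (mRNA bound to tagged ribosomes), 8 libraries in all.

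The proteasome degrades proteins that carry ubiquitin chains. Its core particle is a barrel of stacked rings, with outer rings of alpha subunits (Psma genes) and inner rings of beta subunits (Psmb genes), of which Psmb5, Psmb6 and Psmb7 carry the protease sites. The regulatory particle caps the barrel. Its base holds a ring of ATPases (Psmc genes) that unfold substrates, and its lid includes Psmd14, which removes ubiquitin. Oocytes rely on this machinery to destroy cyclin B and securin at the metaphase to anaphase transitions of meiosis. The fully grown oocyte makes almost no new mRNA, so that its proteins are made from stored mRNA, part of which is recruited to ribosomes through cytoplasmic polyadenylation elements (CPEs) in the 3'-UTR.

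CPE motifs (TTTTAT and TTTTAAT) were searched on the mRNA strand of the longest 3'-UTR annotated for each gene in GENCODE release M21. Sites of 3 genes are shown because they lie in genes with lower ribosome-bound mRNA in old oocytes (Psma1, Psmb1 and Psmd7), and 2 more because they lie in genes whose ribosome-bound mRNA was abundant or close between the ages (Psma2 and Psmd11). Each line gives 30 bases from 5' to 3' around the motif nearest the 3' end, with the motif in capitals.
Psma1: ctataccaatgtTTTTATatgaagaaaata
Psmb1: ggcacaagtttgTTTTATtaaaaagaatgt
Psmd7: gggcactcttccTTTTATccttgaaaggga
Psma2: tttgttttttgtTTTTAATtatctgactgc
Psmd11: aatctgactggcTTTTATtttccttttcaa
In GRCm38, these windows are at chr7:114264659-114264688 (minus strand) for Psma1, chr17:15475965-15475994 (minus strand) for Psmb1 and chr8:107580609-107580638 (minus strand) for Psmd7. Those of Psma2 and Psmd11 are at chr13:14627072-14627101 and chr11:80473057-80473086, both on the plus strand. The motif ended 65 bases before the annotated 3' end in Psma1, 18 in Psmb1, 240 in Psmd7, 546 in Psma2 and 174 in Psmd11. In Psmb1 the motif overlapped a polyadenylation signal (ATTAAA).

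A CPE motif was present in 14 of the 33 proteasome genes (42.4%), against 70.7% of the 7930 genes of both tables with an annotated 3'-UTR. The 3'-UTRs of the proteasome genes were also shorter, with a median of 296 bases against 1332. Within the last 100 bases, a motif was found in 4 of 33 proteasome genes (12.1%) and in 22.3% of all genes. Of the 8 genes with lower ribosome-bound mRNA described below, 3 held a motif (37.5%), and of the other 25, 11 did (44.0%). These shares are descriptions of the annotated sequences, do not take UTR length into account and were not tested.

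The deposited values are CPM, read counts scaled to library size with TMM factors set separately for HA and input. Reads on genes numbered 37817382 to 59688578 in the HA libraries and 38276453 to 60052814 in the input libraries. Replicates differed more in old than in young libraries, with Spearman's rho across genes of 0.692 and 0.837 in HA and of 0.823 and 0.8898 in input (genes are not independent replicates). In the HA table, 10.1% and 14.9% of genes had at most 3 reads in the old libraries, against 0.438% and 2.17% in the young libraries. Of the 12 oocyte markers listed, 11 were in both tables, summing to 13541 to 20912 CPM in HA and 10989 to 12429 CPM in input. Cumulus and granulosa cell markers (7 of 20 in HA, 12 of 20 in input) summed to 396 to 466 CPM in HA and 323 to 724 CPM in input. No blood marker was in the HA table, and C1qb was in the input table at 1.73 to 38.3 CPM. Of 6 oviduct markers, Cdh1, which oocytes also express, was in both tables and Epcam in the input table. Nothing in the labels pairs an old pool with a young one. An exact permutation test of 2 pools against 2 cannot give a two-sided p below 0.333. The p-values below therefore come from limma fitted across all genes on log2(CPM + 1), a scale that understates differences of low values. They measure the spread between 2 pools per age.

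The mRNAs of the proteasome were far from equal in level. Per kb of exon, mean input levels spanned 228.5-fold, from 0.719 CPM per kb for Psmb1 to 164 for Psme3, and mean HA levels spanned 150.3-fold, from 1.29 CPM per kb for Psmb1 to 193 for Psme4. Psme3 and Psme4 code for activators that bind the ends of the core particle in place of the regulatory particle. After them, the highest input levels per kb were those of Psmd4 (75.4), Psma2 (59.6), Psmd12 (56.9) and Psma7 (53.1). The levels of these genes overlapped one another across libraries, so their order is not firm. Input of Psma2 and of Psmd12 was lower in both old pools than in both young pools. In HA, Psma2 followed Psme4 with 161 CPM per kb, before Psme3 (138). Psmd9 came next at 84.2 CPM per kb, owing to a single library described below. Reads over introns were counted as well, so levels per kb of exon are approximate.

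**Figure D1:**
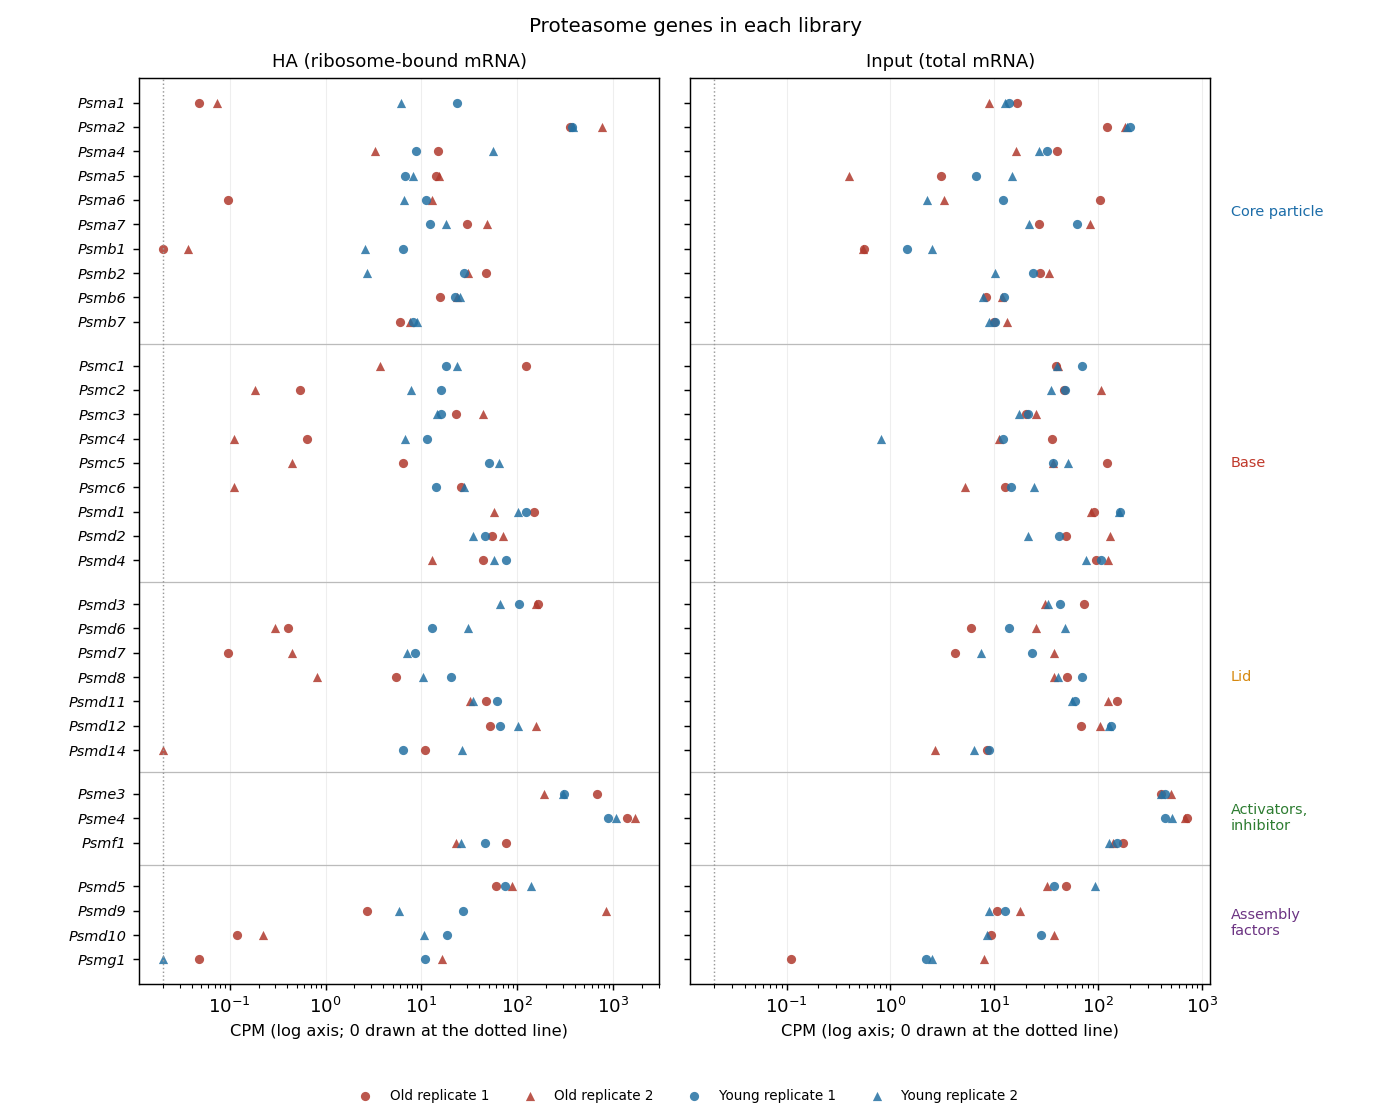
CPM of the 33 proteasome genes in each library, with HA on the left and input on the right (log axes, values of 0 drawn at the dotted line). Old pools are red and young pools blue, with circles for replicate 1 and triangles for replicate 2. In HA, the red symbols of Psma1, Psmb1, Psmc2, Psmc4, Psmd6, Psmd7 and Psmd10 lie below 1 CPM and the blue ones above 2 CPM.

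In ribosome-bound mRNA, 8 of the 33 genes (24.2%) were lower in old oocytes with an unadjusted p under 0.05, and 0 were higher. Across all 8898 genes of the HA table, 10.5% were lower and 4.28% higher by the same rule. The 8 genes were Psma1 and Psmb1 of the core particle, Psmc2, Psmc4 and Psmc5 of the base, Psmd6 and Psmd7 of the lid, and the assembly factor Psmd10. After Benjamini-Hochberg adjustment of the limma p-values over the table, none of the 33 genes was below 0.05 (smallest 0.297), and 0 of the 8898 genes were. The median log2 difference of the 33 genes, old minus young, was -0.28 in HA, against -0.14 for all genes.

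These counts carry a limit from the way the tables were made. Every gene of the tables had at least 1 CPM in at least 2 libraries, so a gene that reached 1 CPM in both young libraries and in neither old one had to differ between the ages. Of the 8 genes, 7 were of this kind (all but Psmc5), as were 10.3% of all genes in the HA table. The opposite kind, at 1 CPM in both old libraries and in neither young one, made up 0.494% of the table and included 0 proteasome genes. The larger share of genes with few reads in the old HA libraries moves in the same direction, and its part in these differences was not tested. In pooled oocytes, fewer oocytes carrying an mRNA and less of it in every oocyte cannot be told apart.

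Old and young HA libraries did not overlap for 18 of the 33 genes. Both old libraries were below both young libraries for 11 genes (33.3%, against 24.7% of all genes) and above them for 7 (21.2%, against 17.2%). The 7 genes above were Psma5, Psma7, Psmb2, Psmc3, Psmd2, Psmd3 and Psme4. This number depended on the scaling, since the TMM factors left the old HA columns with larger sums (1115494 and 1397708 CPM) than the young ones (771444 and 831404 CPM). With all HA libraries rescaled to the same sum, 3 genes stayed above (Psma5, Psma7 and Psmc3, 9.09% against 7.51% of all genes) and 13 were below (39.4% against 35.7%), among them the 8 genes, and the median of all genes moved from -0.14 to -0.68. On the deposited scale, the 11 genes below were the 8 named before with Psmb7, Psmd4 and Psmd8. Rescaling added Psmb6 and Psmd5 to them. The genes below came from 4 of the 5 parts of the proteasome, since none was an activator or inhibitor.

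**Figure D2:**
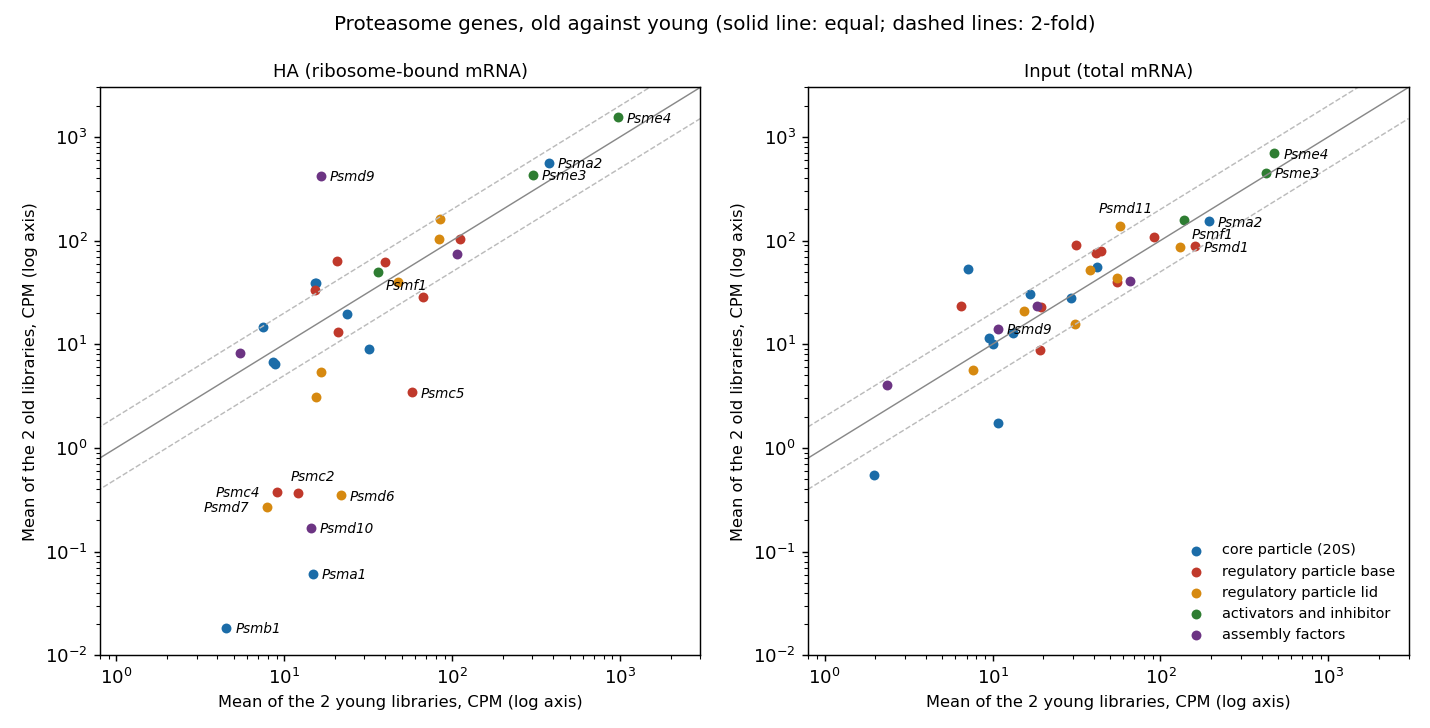
Mean of the 2 old libraries against the mean of the 2 young libraries for each of the 33 proteasome genes (CPM, log axes), with HA on the left and input on the right. The solid line marks equal levels and the dashed lines a 2-fold difference, and colours mark the parts of the proteasome. In HA, 7 genes lie below 1 CPM on the old axis, while in input only Psmb1 does.

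The core particle forms the proteolytic barrel, and among its genes Psma1 and Psmb1 stood apart. Psma1, an alpha ring subunit, had 0.0475 and 0.0739 CPM in the old HA libraries (2 reads in each) and 23.4 and 6.17 CPM in the young ones (1810 and 350 reads). Input levels of Psma1 were 16.7 and 8.89 CPM in old and 13.8 and 12.7 CPM in young pools, so that the ages overlapped there. The log2 difference in HA was -3.64 ± 1.12 (SE, adjusted p = 0.297, limma).

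Psmb1, a beta ring subunit without a protease site, was the lowest of the 33 genes per kb in both fractions. It had 0 and 1 read in the old HA libraries (0 and 0.0370 CPM) and 500 and 145 reads in the young ones (6.46 and 2.56 CPM). The 0 reads of old replicate 1 allow a level of up to 0.0713 CPM, from counting error alone. In input, Psmb1 was at 0.551 and 0.542 CPM in old and at 1.44 and 2.52 CPM in young pools. Both fractions were thus lower in both old pools, with log2 differences of -2.34 ± 0.70 in HA (SE, adjusted p = 0.297, limma) and -0.92 ± 0.75 in input (SE, adjusted p = 0.892, limma). In each fraction Psmb1 reached 1 CPM in both young libraries and in neither old one. The minimum of the tables therefore fixed this direction in both. Under the likelihood ratio test of edgeR on recovered reads, Psma1 and Psmb1 passed in HA (adjusted p = 0.046 for both), where 2.89% of all genes were called lower and 0.427% higher. Both genes entered the HA table through the young libraries only, a limit that this test shares.

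Psma2, also of the alpha ring, had the highest level per kb of the core particle in both fractions. It was at 357 and 764 CPM in old and at 373 and 377 CPM in young HA libraries, and its input level was 123 and 183 CPM in old and 200.1 and 188 CPM in young pools. The HA libraries overlapped between the ages, while input was below the young values in both old pools.

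The ages of Psma5, a further alpha subunit, lay apart in opposite directions in the 2 fractions. Its HA level was 14.1 and 15.1 CPM in old and 6.76 and 8.16 CPM in young libraries, and its input level was 3.05 and 0.401 CPM in old and 6.69 and 14.7 CPM in young pools. Neither difference passed the test (log2 0.88 ± 1.40 in HA and -2.21 ± 1.06 in input, SE), and the lowest input value rested on 20 reads.

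The catalytic subunits Psmb6, which cuts after acidic residues, and Psmb7, which cuts after basic residues, had close values in all pools on the deposited scale. Psmb6 was at 15.8 and 23.5 CPM in old and 22.1 and 25.4 CPM in young HA libraries, and at 8.31, 11.7, 12.3 and 7.73 CPM in input in the same order. Psmb7 was at 5.92 and 7.65 CPM in old and 8.16 and 9.04 CPM in young HA libraries, and at 9.85, 13.2, 10.1 and 8.88 CPM in input. The spread of Psmb6 and Psmb7 between replicates was under 2-fold in both fractions and ages. With libraries rescaled to the same sum, both genes were lower in both old HA libraries. Psmb6 was then at 14.1 and 16.8 in old and 28.6 and 30.5 in young HA libraries. Psmb7 was at 5.30 and 5.47 in old and 10.6 and 10.9 in young HA libraries.

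Psmb5, which cuts after hydrophobic residues, was in the input table only. It had 0.386 and 18.7 CPM in old and 0.145 and 1.24 CPM in young input libraries (21, 931, 10 and 47 reads), so that 1 old pool stood far above the others. Psmb5, Psmb6 and Psmb7 have annotated processed pseudogenes, and how reads were split between near-identical copies is not given in the sources used here. Psmb2, a beta ring subunit, had the highest mean level per kb of the beta genes over both ages. In young HA libraries alone, Psmb6 was above it (29.7 against 17.9 CPM per kb). Psmb2 was at 47.6 and 30.6 CPM in old and 28.1 and 2.70 CPM in young HA libraries. Its input level was 27.7 and 33.9 CPM in old against 23.4 and 10.1 CPM in young pools, higher in both old pools in both fractions, but neither difference passed the test and the ages overlapped in both fractions with libraries rescaled to the same sum.

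The base couples ATP hydrolysis to the unfolding of substrates. Of its 6 ATPases, Psmc2, Psmc4 and Psmc5 had lower HA levels in old oocytes. Psmc2 was at 0.546 and 0.185 CPM in old and 16.1 and 7.84 CPM in young HA libraries (23, 5, 1249 and 445 reads), 32.8-fold lower in the old mean. Its input level was 46.5 and 106 CPM in old and 47.8 and 35.0 CPM in young pools. Old pool 2 thus gave 5303 reads of Psmc2 in input and 5 in HA.

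Psmc4 had 0.641 and 0.111 CPM in old and 11.5 and 6.70 CPM in young HA libraries (27, 3, 889 and 380 reads). Its input was uneven, at 36.0 and 10.97 CPM in old and 12.2 and 0.815 CPM in young pools, the last of these from 31 reads. Psmc5 had 6.44 and 0.444 CPM in old and 50.4 and 64.3 CPM in young HA libraries (271, 12, 3900 and 3645 reads), a 16.7-fold lower old mean. In input, Psmc5 was at 123 and 36.3 CPM in old and 36.5 and 51.5 CPM in young pools. HA levels of Psmc5 did not overlap between the ages, whereas its input levels overlapped.

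The log2 differences of these ATPases in HA were -3.19 ± 1.12 for Psmc2 (adjusted p = 0.302), -2.86 ± 1.02 for Psmc4 (adjusted p = 0.304) and -4.14 ± 1.49 for Psmc5 (adjusted p = 0.304), each with its SE from limma. The other ATPases did not pass the test. Psmc3 was at 23.0 and 43.9 CPM in old and 15.9 and 14.5 CPM in young HA libraries. Psmc1 and Psmc6 differed widely between the old pools, at 123 and 3.66 CPM and at 26.1 and 0.111 CPM, and their young HA libraries lay between 14.0 and 27.8 CPM.

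Psmd1 and Psmd2 are the large scaffold subunits of the base, and Psmd1 was lower in old input. It was at 91.9 and 84.3 CPM in old and 161 and 159 CPM in young input libraries, 1.82-fold lower in the old mean (log2 -0.86 ± 0.33, SE, adjusted p = 0.778, limma). Its HA level was 149 and 56.7 CPM in old and 122 and 100.5 CPM in young libraries, and overlapped between ages. Psmd2 was at 49.3 and 129.9 CPM in old and 41.6 and 20.9 CPM in young input libraries (log2 1.41 ± 0.62, SE, adjusted p = 0.778, limma), just outside an unadjusted p of 0.05. The ubiquitin receptor Psmd4 had 43.8 and 13.0 CPM in old and 75.8 and 57.6 CPM in young HA libraries, with input levels of 95.0, 123, 107 and 76.4 CPM.

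The lid clips ubiquitin chains off substrates before they are degraded. Psmd6 was at 0.404 and 0.296 CPM in old and 13.0 and 30.5 CPM in young HA libraries (17, 8, 1004 and 1731 reads), a 62.2-fold lower old mean (log2 -3.96 ± 1.31, SE, adjusted p = 0.297, limma). In input it was at 5.99 and 25.1 CPM in old and 14.0 and 47.8 CPM in young pools. Psmd7, the partner of the deubiquitinase Psmd14, was at 0.0950 and 0.444 CPM in old and 8.58 and 7.10 CPM in young HA libraries (4, 12, 664 and 403 reads, log2 -2.81 ± 0.93, SE, adjusted p = 0.297, limma). Input levels of Psmd7 spread from 4.19 to 37.7 CPM within the old pools, which enclosed both young values of 23.2 and 7.46 CPM.

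Psmd8, also of the lid, was at 5.42 and 0.813 CPM in old and 20.3 and 10.5 CPM in young libraries (log2 -2.20 ± 1.52, SE), and did not pass the test. Its input level was 49.5 and 37.5 CPM in old and 69.1 and 40.6 CPM in young pools. Psmd3, by contrast, was at 164 and 157 CPM in old and 103 and 66.3 CPM in young HA libraries. Over both ages, its mean HA level per kb was the highest of the lid (57.1 CPM per kb). In young libraries alone, Psmd12 was above it (43.9 against 39.4 CPM per kb). The input level of Psmd3 was 72.3, 30.8, 42.6 and 33.1 CPM, and overlapped. The HA difference of Psmd3 (log2 0.95 ± 0.58, SE) did not pass the test, and its ages overlapped in HA with libraries rescaled to the same sum.

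Psmd11, the lid subunit that touches the core particle, gave the largest input difference past the threshold. It was at 152 and 125 CPM in old and 59.5 and 55.5 CPM in young input libraries, 2.41-fold higher in the old mean (log2 1.25 ± 0.37, SE, adjusted p = 0.778, limma). In HA it was at 46.8 and 32.3 CPM in old and 61.2 and 34.4 CPM in young libraries, so the higher total mRNA was not seen in the ribosome-bound fraction. Psmd12, a further lid scaffold subunit, was at 68.5 and 104 CPM in old and 134 and 127 CPM in young input libraries, and at 52.0, 155, 66.4 and 101 CPM in HA. The deubiquitinase Psmd14 had 0 reads in old HA replicate 2 (up to 0.111 CPM from counting error alone) and 454 in old HA replicate 1 (10.8 CPM), with 6.45 and 26.6 CPM in young HA.

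No activator or inhibitor had an unadjusted p under 0.05 in HA. Psme4, whose product (PA200) opens the core particle for histones and other substrates, had the highest HA level per kb of the 33 genes. It was at 1388 and 1703 CPM in old and 877 and 1056 CPM in young HA libraries, and at 707 and 683 CPM in old and 437 and 518 CPM in young input libraries. Both fractions were therefore higher in both old pools, by 1.60-fold in HA (log2 0.68 ± 0.35, SE, adjusted p = 0.450, limma) and by 1.46-fold in input (log2 0.55 ± 0.24, SE, adjusted p = 0.778, limma). With libraries rescaled to the same sum, Psme4 overlapped between the ages in HA (1245 and 1218 in old, 1137 and 1269.9 in young) and stayed higher in both old pools in input.

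Psme3, the nuclear activator PA28 gamma, had 673 and 188 CPM in old and 309.9 and 296 CPM in young HA libraries. Its input was the most even of any proteasome gene relative to its level, at 402 and 503 CPM in old and 440.2 and 405 CPM in young pools. The inhibitor Psmf1 was at 76.5, 23.1, 46.5 and 25.9 CPM in HA and at 174, 138, 151 and 127 CPM in input. The 33 genes summed to 3391 and 4297 CPM in old and 2513 and 2657 CPM in young HA libraries, and to 2586, 2698, 2345 and 2201 CPM in input. The order in HA turned with libraries rescaled to the same sum, to 3040 and 3075 in old against 3257 and 3196 in young HA libraries.

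Assembly factors escort unfinished particles and leave the complete proteasome. Psmd10 (gankyrin), a chaperone of the base, was at 0.119 and 0.222 CPM in old and 18.2 and 10.5 CPM in young HA libraries (5, 6, 1412 and 596 reads), an 84.4-fold lower old mean (log2 -3.67 ± 1.12, SE, adjusted p = 0.297, limma). In input it was at 9.35 and 37.2 CPM in old and 28.1 and 8.52 CPM in young pools, with full overlap.

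Psmd9, another chaperone of the base, had 839 CPM in old HA replicate 2 (22690 reads), against 2.68 CPM in old HA replicate 1 and 27.3 and 5.76 CPM in young HA. Its input level was 10.6 and 17.6 CPM in old and 12.6 and 8.94 CPM in young pools. The old HA replicates were thus 312.4-fold apart while input stayed within 1.97-fold, and the log2 difference in HA of 2.01 ± 2.42 (SE) rests on 1 library. Psmd5, the third chaperone of the base, was at 60.0, 88.1, 74.1 and 139 CPM in HA and 49.0, 32.3, 37.1 and 94.0 CPM in input. Psmg1, a chaperone of the core particle, was uneven within both ages, at 0.0475, 16.4, 10.9 and 0 CPM in HA.

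**Figure D3:**
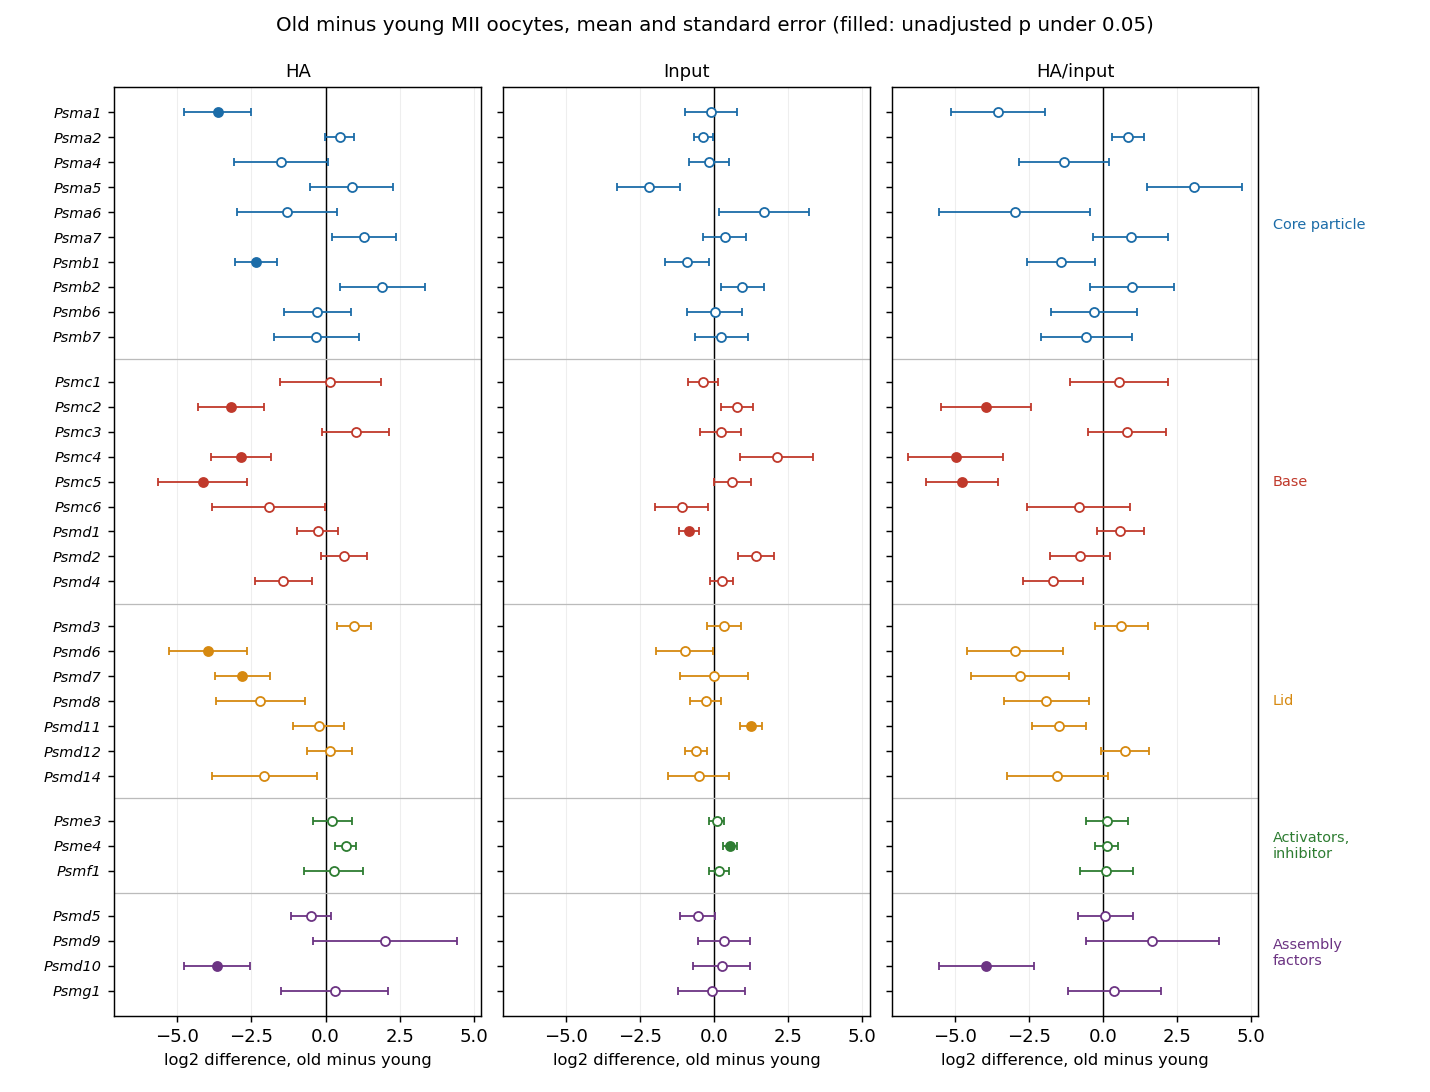
Log2 difference, old minus young, of each of the 33 proteasome genes in HA, input and HA/input (limma on log2(CPM + 1), points are means over 2 pools per age, bars are standard errors). Filled points have an unadjusted p under 0.05. The 8 filled points in HA lie between -4.14 and -2.34, while input has 1 filled point below 0 (Psmd1) and 2 above it (Psmd11 and Psme4).

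In total mRNA, few of the proteasome genes differed between the ages. Of the 33 genes, 2 were higher (Psmd11 and Psme4) and 1 was lower (Psmd1) in old input with an unadjusted p under 0.05, against 2.71% and 3.48% of all 10530 genes of the input table. The smallest adjusted p of the 33 genes was 0.778 (limma), and 1 of the 10530 genes of the table (0.0095%) passed after adjustment. In input, both old pools were above both young pools for 4 genes (12.1%, against 16.4% of all genes) and below them for 6 (18.2%, against 18.9%). With libraries rescaled to the same sum, 2 were above (6.06%, against 11.1%) and 7 below (21.2%, against 24.7%). The median log2 difference was 0.09, against -0.03 for all genes. By group, medians in input lay between -0.29 for the lid and 0.25 for the base.

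The parts of the proteasome were set side by side with the same measure in HA. The median log2 difference was -0.30 over the 10 core particle genes, -1.42 over the 9 base genes, -2.06 over the 7 lid genes, 0.27 over the 3 activators and inhibitors and -0.08 over the 4 assembly factors. Genes with an unadjusted p under 0.05, all lower, numbered 2 of 10, 3 of 9, 2 of 7, 0 of 3 and 1 of 4 in the same order. By the same rule, 10.5% of all genes of the HA table were lower. The difference between core and regulatory particle was not tested, and both medians hold genes that passed the table's minimum through the young libraries.

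Summed levels gave another view, since they follow the abundant genes. Per kb of exon, core particle genes summed to 259.8 and 414 CPM per kb in old and 256 and 259.3 CPM per kb in young HA libraries. Base and lid together summed to 338 and 249 CPM per kb in old and 331 and 327 CPM per kb in young HA libraries. Neither sum was lower in both old libraries on this scale, but both were with libraries rescaled to the same sum. The core particle then summed to 233 and 296 per kb in old and 331 and 312 per kb in young HA libraries, and base and lid together to 303 and 178 per kb in old and 429 and 394 per kb in young HA libraries.

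HA/input of a pool shows how much of an mRNA was recovered with tagged ribosomes relative to the total. HA and input were scaled separately, so a ratio is compared between pools and genes and not with 1. In young pools, the mean HA/input ratio ranged 17.9-fold among the 33 genes, from 0.256 for Psmf1 to 4.58 for Psmc4. The top of this range rests on young pool 2, where Psmc4 had 31 input reads, and in young pool 1 its ratio was 0.945. In old pools the range was wider, from 0.00558 for Psma1 to 24.0 for Psmd9. The median ratio over the 33 genes was 0.601 and 0.375 in old and 0.929 and 0.837 in young pools, against 0.687, 0.572, 0.729 and 0.724 for all genes.

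**Figure D4:**
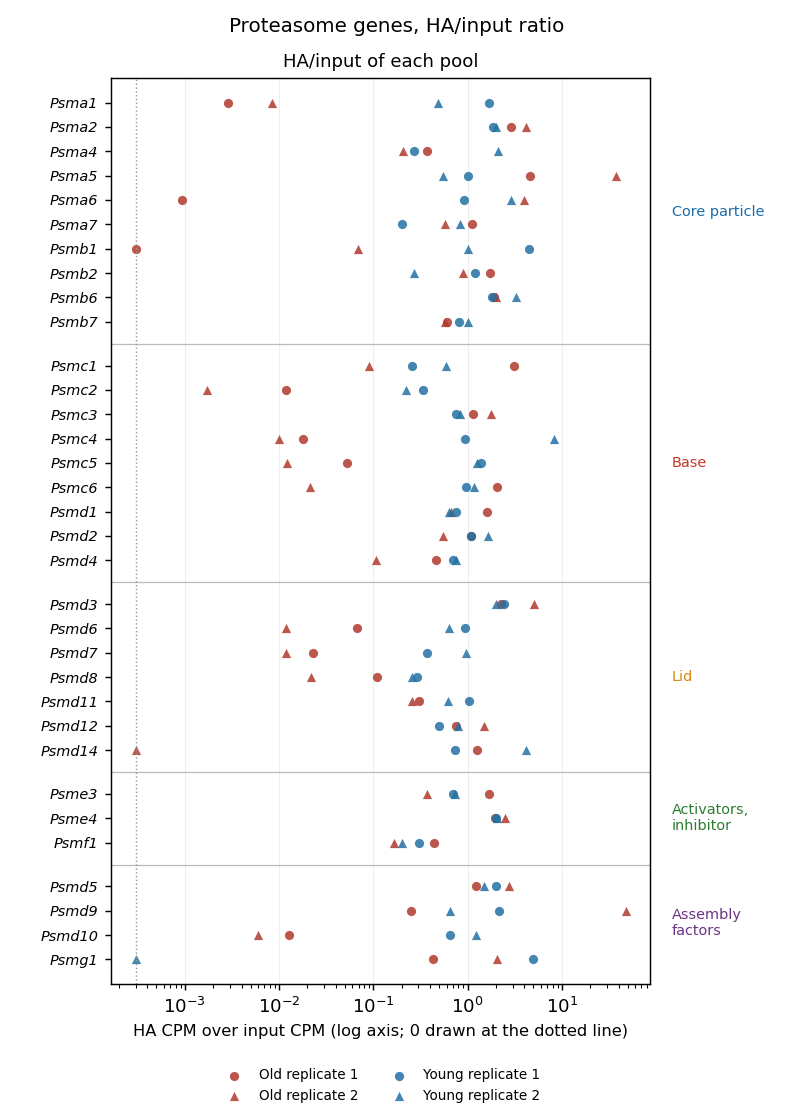
HA/input ratio of each of the 33 proteasome genes in the 4 pools (log axis, values of 0 drawn at the dotted line), with old pools in red and young pools in blue. For Psma1, Psmb1, Psmc2, Psmc4, Psmc5, Psmd6, Psmd7 and Psmd10 both old pools lie below 0.1 and both young pools above 0.2.

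Of the 33 genes, 4 had lower HA/input in old pools with an unadjusted p under 0.05, against 3.51% of all 8537 genes, and 0 had higher HA/input, against 2.98%. These were the ATPases Psmc2, Psmc4 and Psmc5 and the assembly factor Psmd10, and none of them passed after adjustment (0.739 for each, limma), nor did any of the 8537 genes. All but Psmc5 reached 1 CPM in both young HA libraries and in neither old one. The limit given for the HA counts therefore applies to them. Psmc5 had ratios of 0.0525 and 0.0122 in old and 1.38 and 1.25 in young pools (log2 -4.76 ± 1.23, SE, adjusted p = 0.739, limma). Psmc4 had 0.0178 and 0.0101 in old and 0.945 and 8.22 in young pools (log2 -4.97 ± 1.59, SE, adjusted p = 0.739, limma), and its highest ratio rests on 31 input reads.

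Psmc2 had ratios of 0.0118 and 0.00174 in old and 0.337 and 0.224 in young pools (log2 -3.95 ± 1.51, SE, adjusted p = 0.739, limma). Psmd10 had 0.0127 and 0.00596 in old and 0.650 and 1.23 in young pools (log2 -3.93 ± 1.61, SE, adjusted p = 0.739, limma). In all 4 genes both old ratios were far below both young ratios. The same held for Psma1, at 0.00285 and 0.00832 in old and 1.69 and 0.487 in young pools (log2 -3.53 ± 1.59, SE), which did not pass the test. Psmd11, whose total mRNA was higher in old pools, had ratios of 0.308, 0.259, 1.03 and 0.620. When the interaction of age and fraction was tested with edgeR's likelihood ratio test on reads, Psmc5 passed (adjusted p = 0.036), where 0.972% of all genes were called lower and 0.0937% higher.

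Psmc2 and Psmd8 had the lowest mean ratios over the 4 pools, and Psmd9 and Psma5 the highest. Psmd8 was at 0.109 and 0.0217 in old and 0.294 and 0.258 in young pools. HA/input of Psma5 was 4.61 in old pool 1, 37.6 in old pool 2, 1.01 in young pool 1 and 0.555 in young pool 2, above both young values in both old pools (log2 3.09 ± 1.59, SE, adjusted p = 0.739, limma). Psme4 was the steadiest, at 1.96, 2.49, 2.01 and 2.04. Both old pools were below both young pools for 13 of the 33 genes (39.4%, against 22.7% of all genes) and above them for 3 (9.09%, against 16.8%), namely Psma2, Psma5 and Psmc3. The 13 genes included the 7 that reached 1 CPM in both young HA libraries and in neither old one. The limit given for the HA counts therefore applies to this count as well.

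Single libraries decided some of these calls, although the direction was the same without each of them. For genes at 1 CPM in both young HA libraries and in neither old one, the HA direction could not have changed. In HA, Psmb1 no longer had an unadjusted p under 0.05 without old replicate 1 (log2 -2.31) or old replicate 2 (log2 -2.37), nor did Psmc4 without old replicate 2 (log2 -2.58) or Psmd7 without old replicate 1 (log2 -2.61). Psmc5 was lost without young replicate 1 (log2 -4.32) or young replicate 2 (log2 -3.97). In input, Psmd1 was lost without old replicate 2 (log2 -0.79) and without either young replicate (log2 -0.84 and -0.87). Psme4 was lost in input without either old replicate (log2 0.52 and 0.57) and without young replicate 1 (log2 0.42). In HA/input, none of Psmc2, Psmc4, Psmc5 and Psmd10 passed without young replicate 2 (log2 -4.21, -3.89, -4.83 and -3.49), and Psmc2, Psmc5 and Psmd10 were lost without young replicate 1 (log2 -3.70, -4.69 and -4.36). Psmd10 was also lost without old replicate 2 (log2 -3.05). These fits assume that a lone library varies like the others.

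Other genes that serve the proteasome were counted by the same rule. Of 28 listed genes (shuttle factors, proteasome-bound enzymes, the Vcp segregase and its cofactors, and the regulators of proteasome gene expression), 26 were in the HA table. Of these, 1 was higher and 0 were lower in old HA with an unadjusted p under 0.05, against 4.28% and 10.5% of all genes. Txnl1, a thioredoxin-like protein bound to the regulatory particle, was at 149 and 77.9 CPM in old and 13.4 and 29.7 CPM in young HA libraries (log2 2.37 ± 0.87, SE, adjusted p = 0.311, limma). Its input level was 27.0 and 12.4 CPM in old and 37.8 and 48.6 CPM in young pools, and its HA/input difference was log2 3.55 ± 1.10 (SE, adjusted p = 0.739, limma). In input, 1 of 27 was lower (Nploc4, a cofactor of Vcp) and 0 were higher, against 3.48% and 2.71% of all genes. In HA/input 1 of 26 was higher (Txnl1) and 1 lower, against 2.98% and 3.51% of all genes. The lower one was Ngly1 (a deglycosylating enzyme that processes a transcription factor of proteasome genes). Nploc4 was at 37.9 and 78.2 CPM in old and 148 and 96.1 CPM in young input. Ngly1 was at 31.3 and 0.407 CPM in old and 38.3 and 77.9 CPM in young HA, and at 72.8, 88.0, 65.0 and 25.1 CPM in input, lower in both old HA libraries and higher in both old input libraries.

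Replicates of the same age were compared with each other as well. The old HA replicates differed by more than 2-fold on log2(CPM + 1) for 15 of the 33 genes (45.5%), against 58.0% of all genes in both tables. For young HA the numbers were 8 of 33 (24.2%) and 38.4%, for old input 15 of 33 (45.5%) and 36.1%, and for young input 9 of 33 (27.3%) and 24.2%. The widest gap was that of Psmd9 in old HA, followed by that of Psmc1 in old HA. In input it was that of Psma6, an alpha subunit, at 103 and 3.25 CPM in the old pools.

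Genes present in 1 table only complete the account. Psmb3, a beta subunit, was at 4.70 and 1.48 CPM in old and 1.62 and 0.987 CPM in young HA libraries. Psma3 was at 4.30, 1.81, 4.95 and 8.36 CPM and Psmb4 at 8.38, 0, 2.51 and 0.421 CPM in input. Psmc3ip, the recombination cofactor, was at 3.56 and 5.54 CPM in old and 20.3 and 3.40 CPM in young HA libraries and at 17.3, 29.8, 39.0 and 29.2 CPM in input. It overlaps Mlx, and reads were counted without regard to strand, so its values are uncertain. Psma8, the immunoproteasome subunits Psmb8, Psmb9 and Psmb10, Psmb11, Psmd13, Psme1, Psme2, Psmg2, Psmg3 and Psmg4 were not analysed here.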

How the data were processed

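RNA-Seq of 8 libraries from 4 pools of MII oocytes was analysed. The deposited signal values are CPM, which the authors made by trimming (Trimmomatic 0.36), alignment with HISAT2 to GRCm38, counting per gene with HTSeq without regard to strand and with intronic reads included, and TMM normalization of HA and input separately. The Methods state a minimum of 10 CPM in 2 libraries, whereas 1 CPM in 2 libraries is the minimum that holds in the tables. Every value was a whole multiple of 1 read (100% of values, tolerance 0.01 reads), so reads were recovered. A floor of 3 reads was 0.0388 to 0.111 CPM in HA and 0.0435 to 0.0788 CPM in input, covering counting error only.

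The ages were compared using limma 3.58.1 (lmFit and eBayes with trend, two-sided) on log2(CPM + 1), with Benjamini-Hochberg adjustment over all genes and thresholds of 0.05 for unadjusted and adjusted p. HA/input was log2(HA CPM + 1) minus log2(input CPM + 1) of each pool, with the variance trend over the mean level of the gene. Both fractions of a pool share 1 lysate and were paired. Members were chosen by symbol, and members, lists and tests were chosen with earlier results of these data known. Given in every library were genes with an unadjusted p under 0.05, the highest per kb of each group, the 2 highest and 2 lowest HA/input ratios and Psmb5, Psmb6 and Psmb7, 23 genes in all. Values of further members were added after they were seen. Exon lengths are those of the longest principal transcript in GENCODE M21, a later release than the M11 used by the authors, and matched 99.9% of identifiers. The design named the deposited unit as CPM. Its columns sum to 771444 to 1397708 because of the TMM factors. Alternatives included pseudocounts of 0.1 and 5 CPM, a filter at 10 CPM, other scalings, eBayes without trend, edgeR 4.0.16 and DESeq2 1.42.0 on recovered reads, and leaving out each pool. The scripts were run first on simulated counts with known differences. R 4.3.3, Python 3.11.15, pandas 2.3.3, numpy 2.4.6 and matplotlib 3.10.9 were used.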

Additional observations from a re-analysis of the deposited data

How the results depend on the processing

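The 15 differences with an unadjusted p under 0.05 (in 11 genes) were recomputed, and 168 of 207 values from alternatives kept the direction and the side of the 0.05 threshold, while the other 39 kept the direction and no longer passed (9 of 15 under quantile normalization). Of the 33 genes, the number lower in old HA was 3 with the filter at 10 CPM in 2 libraries (27 genes left, 2.87% of all genes lower) and 2 with quantile normalization (2.58%). The number higher in old HA was 1 (Psmd9) with edgeR's likelihood ratio test (4.48% of all genes), edgeR's quasi-likelihood test (4.54%) and DESeq2 (7.6%). Adjusted p under 0.05 in HA was reached by 2 of them with the likelihood ratio test (295 of all genes) and 5 with DESeq2 (508 of all genes). The median log2 difference in HA was 0.14 with the filter (all genes 0.09) and -0.90 with libraries rescaled to the same sum (all genes -0.68). In input, the number higher in old was 1 with quantile normalization (2.86% of all genes), with the same sum (1.7%) and with eBayes without trend (2.36%), and 4 with DESeq2 (4.78%). In HA/input, the number lower in old was 2 with a pseudocount of 5 CPM (2.59% of all genes), 1 with the filter (24 genes left, 2.97%), 2 with quantile normalization (2.99%), 8 with the likelihood ratio test (8.96%) and 7 with DESeq2 (10.4%). The number higher was 1 (Psma5) with eBayes without trend (1.73%), DESeq2 (5.29%) and the variance trend over the ratio (2.33%), an option chosen after seeing the data. Adjusted p under 0.05 in HA/input was reached by 1 with the likelihood ratio test (91 of all genes) and 5 with DESeq2 (302 of all genes). The median HA/input difference was -0.25 with a pseudocount of 5 CPM, 0.10 with the filter (all genes 0.10) and -0.95 with the same sum (all genes -0.48). The filter removes genes of low level by construction, and for the other settings the cause was not tested.

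Leaving out 1 pool at a time gave 7 to 10 genes lower (9.41% to 13.2% of all genes), 0 to 2 higher (0.944% to 12.9%) and 0 to 2 with an adjusted p under 0.05 in HA, with a median of -0.57 to -0.24. Without old replicate 1, the 2 adjusted calls (Psmc5 and Psmd9) stood beside 393 in the table, and without young replicate 2 the 1 adjusted call (Psmb1) stood beside 634. In input, leaving out 1 pool gave a median of -0.013 to 0.32. In HA/input it gave 0 to 7 lower (0.351% to 13.6% of all genes) and 0 to 3 higher (0.363% to 11.6%), with a median of -0.93 to -0.39, and the 7 were found without old replicate 1. The replicate number was used as a block, although same-numbered pools did not deviate together (r = 0.0786 in HA, 0.0269 in input and 0.0108 in HA/input). The block left the counts at 8 lower in HA (10.0% of all genes) and 4 lower in HA/input (3.68%). In input, 2 were higher (2.99% of all genes) and 1 was lower (3.45%). These were the genes named before, except that in input Psmd2 was higher in place of Psme4. With 2 pools per age and few reads in old HA, differences of low genes are imprecise.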
